A study of Mus musculus with 8 samples.

Results

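Syndecans and glypicans are the cell-surface proteoglycans that carry heparan sulfate, and 8 of the 10 mouse genes (Sdc1, Sdc2, Sdc3, Sdc4, Gpc1, Gpc3, Gpc4 and Gpc6) were measured in the hippocampus of mutant and normal mice. They were taken as every probe set whose only gene symbol was 1 of the 10, which gave 8 of 12393 genes measured by such probe sets, and 17 of 22626 probe sets, 12 for syndecans and 5 for glypicans. No probe set carrying Gpc2 or Gpc5 as its only symbol was found, and these genes were not analysed here. The arrays were Affymetrix mouse expression arrays, 1 per animal, hybridised with RNA of the right hippocampus. The 4 mutant mice carried the mps allele of Gusb on both chromosomes (mps/mps) and were 38.3, 25.6, 25.6 and 19.6 weeks old. The 4 normal mice carried it on 1 chromosome (mps/+), so they were carriers and not mice with intact copies only, and were 38.3, 25.6, 19.6 and 14.6 weeks old. Both groups held 2 females and 2 males, were of the B6.C-H2-Kbm1/ByBir background and shared cages, and the labels name no treatment.

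A syndecan is a core protein that spans the membrane, with a short cytoplasmic tail that binds scaffold proteins such as syntenin. A glypican is held to the outer leaflet by a lipid anchor. Both carry long heparan sulfate chains that bind growth factors and morphogens and present them to their receptors. The chains are made and sulfated in the Golgi and are taken apart in lysosomes, step by step from the end of the chain. Beta-glucuronidase, the product of Gusb, removes glucuronic acid in that breakdown, and its loss causes mucopolysaccharidosis VII, in which heparan sulfate and other glycosaminoglycans are stored. In brain, syndecan-3 is known chiefly from neurons and axons, syndecan-2 from dendritic spines, and glypican-4 and glypican-6 as factors from astrocytes that promote excitatory synapses.

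Values are log2 expression per probe set, so a difference of 1 is 2-fold, and levels of different genes were not set against each other. Probe sets of 1 gene are named by their order in mean signal over the 8 arrays, from the brightest to the dimmest. The 27 probe sets for Bacillus transcripts gave the background, whose median was 2.29 and whose highest value was 3.72. A Gusb probe set was at 4.51, 4.71, 4.36 and 4.62 in mutants 1 to 4, against 6.56, 5.40, 5.83 and 6.02 in normals 1 to 4, while the other Gusb probe set overlapped between the groups. An Xist probe set was at 4.62 to 4.98 on arrays labelled male and at 9.71 to 11.1 on those labelled female. Normal 1 stood apart in RNA quality, with a mean difference between 3 prime and 5 prime control probe sets of 3.58, against 0.30 to 0.75 in mutants and 0.22 to 0.35 in normals 2 to 4. The arrays also differed in tissue content, and the defining markers of the labelled tissue were uneven. The 8 hippocampal field markers averaged 7.19 in mutant 3 and between 5.52 and 6.09 in mutants 1, 2 and 4, against values between 5.55 and 6.10 in normals. The 7 striatal markers averaged between 6.66 and 7.69 in mutants, against 7.47 in normal 2 and between 9.25 and 10.4 in normals 1, 3 and 4. A lower value in a bulk sample can come from fewer cells of a type or from less RNA per cell, and these cannot be told apart.

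Genotype made no difference to a syndecan or glypican that passed the test. Of the 17 probe sets, 0 were higher and 0 lower in mutants at an adjusted p of 0.05 in limma, a linear model fitted over all 22626 probe sets, in which 0.0796% were called higher and 0.00884% lower. The largest differences were higher mutant means for Gpc1, Sdc3 and Sdc4, each on the brightest or only probe set of the gene. At an unadjusted p under 0.05 there was 1 of 17, a Sdc4 probe set, where 5.95% of all probe sets passed in either direction. Mutant and normal arrays overlapped for each of the 17, while they did not overlap for 3.56% of all probe sets. The mutant mean was higher for 6 of the 17, and the median change was -0.07, against 47.1% and -0.01 over all probe sets. Taking the brightest probe set of each gene, 4 of 8 means were higher in mutants, with a median of 0.06, against 52.5% and 0.01 over 12393 genes. The precision differed between members, and for 11 of 17 the 95% interval of the difference lay inside a 2-fold change in both directions. The intervals of the other 6 reached past a 2-fold change in at least 1 direction, so these data do not bound their difference to that size. Among the 11 were the dimmest Sdc1 and the dimmer Gpc6 probe set, which did not exceed the background on any array. Their intervals therefore do not bound a change in expression.

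**Figure D1:**
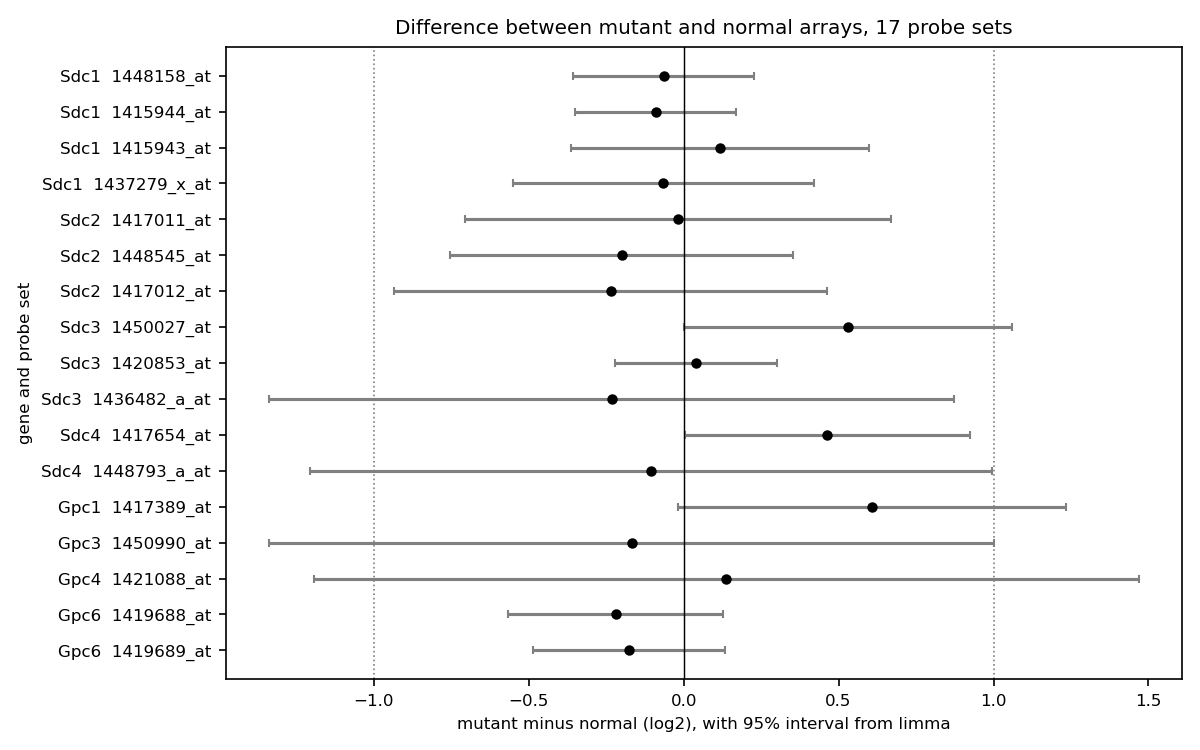
Mutant minus normal difference (log2, horizontal axis) of each of the 17 syndecan and glypican probe sets, with the 95% interval from limma as bars and dotted lines at a 2-fold change. Gpc1, Sdc3 and Sdc4 each have a probe set at 0.46 to 0.61, and the intervals of Gpc3, Gpc4, the dimmest Sdc3 and the dimmer Sdc4 probe set are the widest.

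Among the syndecans, Sdc4 had the lowest p. Syndecan-4 is found in many cell types, astrocytes among them, and takes part in focal adhesions. Its brighter probe set was at 10.1, 9.56, 9.66 and 10.1 in mutants 1 to 4, against 9.40, 9.84, 9.23 and 9.13 in normals 1 to 4. Mutants 1 and 4 lay above every normal, but normal 2 lay above mutants 2 and 3. The means were 9.86 ± 0.29 in mutants and 9.40 ± 0.32 in normals (SD, n = 4 each), a difference of 0.46 ± 0.20 (SE), or 1.38-fold (limma, unadjusted p = 0.048, adjusted p = 0.832). The dimmer Sdc4 probe set gave no such difference. It was at 7.42, 6.47, 5.87 and 6.32 in mutants, against 5.61, 7.13, 7.62 and 6.15 in normals, a change of -0.10 ± 0.48 (SE). Across the 8 arrays the Sdc4 probe sets had a Pearson r of 0.202 with each other, so they did not follow the same order of animals.

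Sdc3 encodes the main syndecan of neurons, a receptor for the growth factor pleiotrophin. Its brightest probe set was at 9.31, 9.59, 9.26 and 9.87 in mutants, against 8.65, 9.45, 8.58 and 9.22 in normals. The 4 mutants lay above 3 normals, and normal 2 lay within the mutant range. The difference was 0.53 ± 0.23 (SE), or 1.44-fold, with means of 9.51 ± 0.28 in mutants and 8.98 ± 0.43 in normals (SD, n = 4 each, limma adjusted p = 0.840). Again the other probe sets did not share it. The second in brightness was within 5.81 to 6.09 in mutants and 5.86 to 6.15 in normals, a change of 0.04. The dimmest was at 5.59, 5.38, 4.14 and 5.45 in mutants, against 4.11, 5.89, 5.36 and 6.13 in normals, so that 1 array in each group was low. Its difference was -0.23 ± 0.48 (SE), and its r with the brightest probe set was 0.386.

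The stretch before the start of Sdc4 and Sdc3 is shown because these are the syndecans whose brightest probe sets had the higher mutant means, and that of Gpc3 and Gpc4 because they are the glypicans whose levels varied most between animals. The sequences are the 250 bases upstream of the annotated start in RefSeq (GRCm38.p6), 5′ to 3′ on the strand of the gene, which the table gives for 7 of the 10 genes, all but Sdc2, Gpc1 and Gpc6. They lie at chr2:164443189-164443438 (minus strand), chr4:130792287-130792536 (plus strand), chrX:52613975-52614224 (minus strand) and chrX:52164924-52165173 (minus strand). Capitals mark GGGCGG, the core of a GC box bound by Sp factors, and TATAA, the core of a TATA box, on either strand; CACGTG, the core of the E-box, was searched too.
Sdc4: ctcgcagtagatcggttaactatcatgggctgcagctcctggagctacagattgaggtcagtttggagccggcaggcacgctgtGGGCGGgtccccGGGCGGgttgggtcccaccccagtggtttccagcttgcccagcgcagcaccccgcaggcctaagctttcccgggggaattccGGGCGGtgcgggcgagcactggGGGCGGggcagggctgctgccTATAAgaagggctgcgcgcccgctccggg
Sdc3: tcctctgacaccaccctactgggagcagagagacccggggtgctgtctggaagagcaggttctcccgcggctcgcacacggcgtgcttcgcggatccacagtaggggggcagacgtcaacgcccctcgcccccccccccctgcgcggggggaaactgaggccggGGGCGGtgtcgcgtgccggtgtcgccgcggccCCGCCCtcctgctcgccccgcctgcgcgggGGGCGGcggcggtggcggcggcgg
Gpc3: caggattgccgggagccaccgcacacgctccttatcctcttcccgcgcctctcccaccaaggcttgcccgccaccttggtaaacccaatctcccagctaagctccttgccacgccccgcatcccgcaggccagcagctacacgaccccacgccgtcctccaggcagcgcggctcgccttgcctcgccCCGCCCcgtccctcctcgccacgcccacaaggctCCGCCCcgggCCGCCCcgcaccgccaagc
Gpc4: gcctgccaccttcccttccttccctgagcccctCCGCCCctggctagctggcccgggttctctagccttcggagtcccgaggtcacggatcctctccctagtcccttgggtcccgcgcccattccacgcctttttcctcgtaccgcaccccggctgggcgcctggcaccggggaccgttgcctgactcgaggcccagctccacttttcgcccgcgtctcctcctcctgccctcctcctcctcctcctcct
The GC box was found 4 times before Sdc4, 3 times before Sdc3, 3 times before Gpc3 and 1 time before Gpc4, and 32.7% of 32851 promoters of the same length held at least 1. TATAA was found before Sdc4, with its first base 29 bases upstream of the start, and in none of the other 3 (22.8% of all promoters). CACGTG was in none of the 4 windows (6.02% of all promoters). Their base composition was 68.0%, 76.4%, 71.6% and 68.4% G and C, in the order printed, against a median of 52.4%. These matches describe the letters in the windows alone.

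Sdc2 encodes the syndecan of dendritic spines and of mesenchymal cells, and its 3 probe sets gave no common difference between genotypes. The brightest was at 9.24, 9.04, 8.33 and 9.08 in mutants, against 9.22, 8.57, 8.40 and 9.58 in normals. Both groups held high and low animals, and the change was -0.02 ± 0.30 (SE, limma adjusted p = 0.997). The other Sdc2 probe sets changed by -0.20 (the second in brightness) and -0.24 (the dimmest), with standard errors of 0.24 and 0.31. These had an r of 0.819 with each other, and mutant 1 and normal 4 were the highest arrays on both.

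Sdc1, the syndecan of epithelia and plasma cells, was dim. Of its 4 probe sets, the dimmest lay between 1.93 and 2.70 in mutants and between 2.07 and 2.85 in normals and did not exceed the background on any array. The other 3 lay above it on all 8 arrays, the brightest at 4.72 to 5.03 in mutants and 4.76 to 5.20 in normals. The changes of these 3 were -0.06, -0.09 and 0.12, with 95% intervals that reached no further than -0.36 and 0.60. Of 5 B and plasma cell markers on the array, 3 exceeded the background on at least 1 array. Ighm, an immunoglobulin heavy chain gene, lay between 6.02 and 7.14 in mutants and between 6.91 and 8.82 in normals. The list did not go in 1 direction, with 2 of the 5 higher in mean in mutants. At an unadjusted p under 0.05 in limma, 1 was higher and 1 lower, against 6.51% of all genes in either direction.

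**Figure D2:**
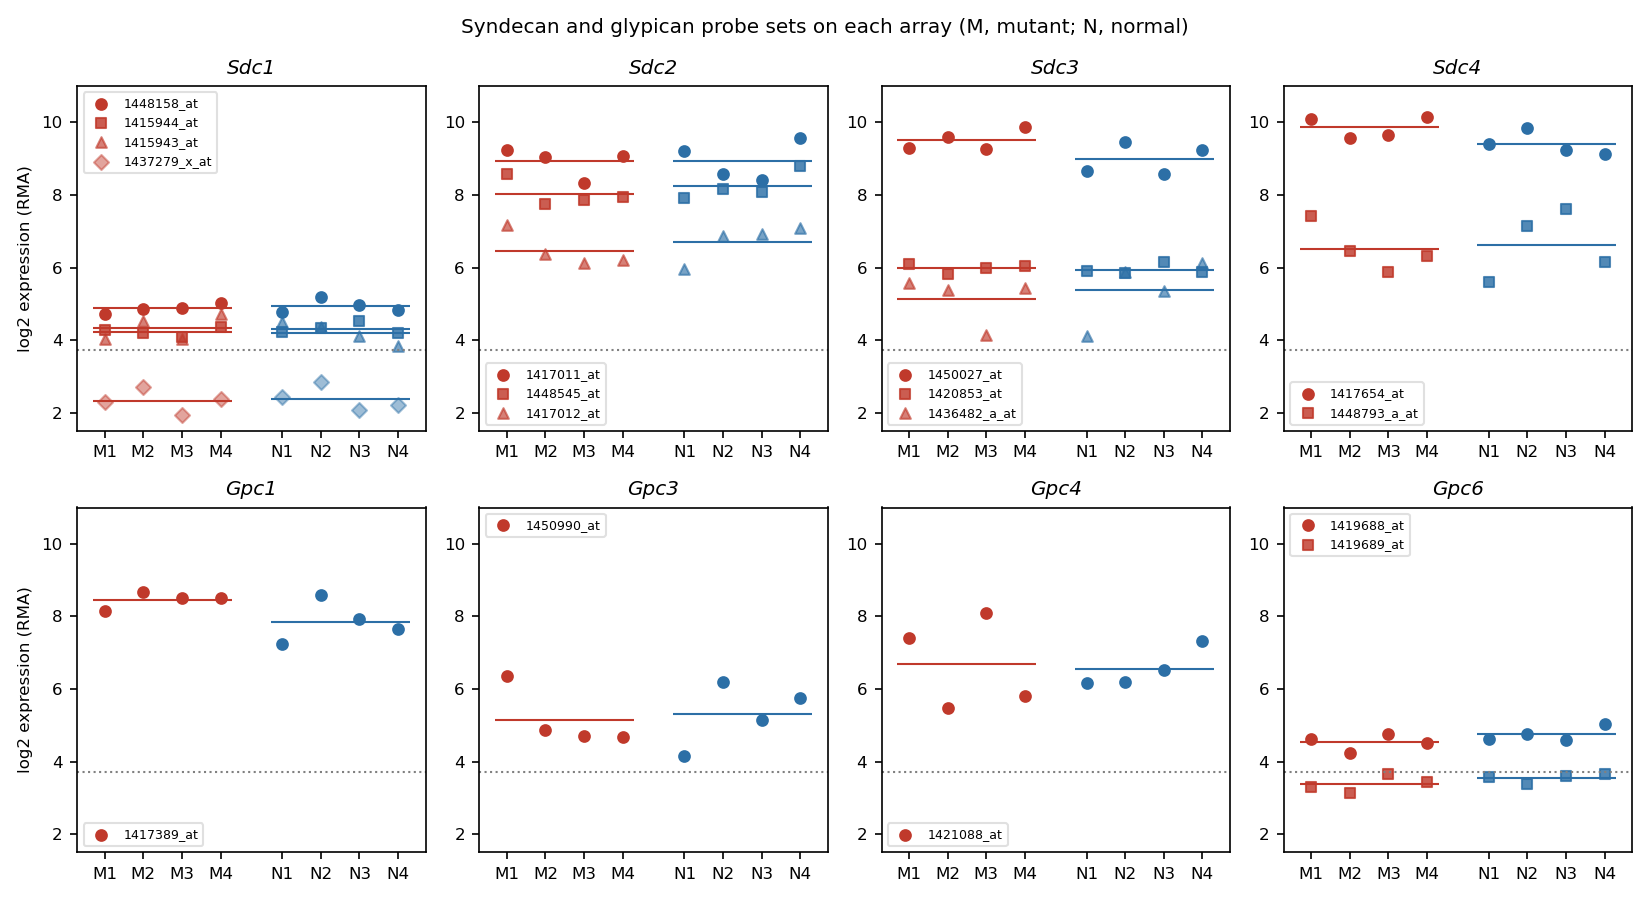
Log2 expression (vertical axis) of every syndecan and glypican probe set on each array, mutants 1 to 4 in red (M1 to M4) and normals 1 to 4 in blue (N1 to N4), 1 panel per gene and 1 symbol per probe set. Horizontal lines are group means, and the dotted line is the highest Bacillus control value, 3.72. The red and blue points of each probe set overlap. The points of Gpc3, the dimmest Sdc3 and the dimmer Sdc4 probe set spread widely within both groups, and those of Gpc4 most in mutants.

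Among the glypicans, Gpc1 differed most in mean. Glypican-1 is a glypican of neurons that binds fibroblast growth factors and Slit proteins. Its probe set was at 8.14, 8.67, 8.51 and 8.51 in mutants, against 7.23, 8.60, 7.93 and 7.64 in normals. The mutants lay close together and above 3 normals, while normal 2 lay above 3 mutants. The means were 8.46 ± 0.23 in mutants and 7.85 ± 0.57 in normals (SD, n = 4 each), a difference of 0.61 ± 0.27 (SE), or 1.52-fold (limma adjusted p = 0.846). Normal 1, the array of lower RNA quality, was the lowest, and without it the difference was 0.40.

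The same array bore on other members. Normal 1 was the lowest of the 8 arrays for 5 of the 17 probe sets, as was mutant 2, and normal 4 was the highest for 5. Those lowest in normal 1 were Gpc1, Gpc3, the dimmest Sdc2, the dimmest Sdc3 and the dimmer Sdc4 probe set. Without normal 1 the difference went from -0.17 to -0.55 for Gpc3 and from -0.24 to -0.49 for that Sdc2 probe set. It went from -0.23 to -0.65 for that Sdc3 and from -0.10 to -0.44 for that Sdc4 probe set. For the brightest Sdc3 probe set it was 0.42 without normal 1, and for that of Sdc4 0.46. Without normal 2, the normal closest to the mutants, the difference was 0.86 for Gpc1, 0.69 for Sdc3 and 0.61 for Sdc4. Normal 2 was picked by these same values, so the rise follows from that choice. The lowest adjusted p of these 3 probe sets in any limma fit that left out an animal was 0.245. The count at an unadjusted p under 0.05 was 0 without mutant 4, normal 1 or normal 3, 2 without mutant 3 and 3 without normal 2. It was also 0 after quantile normalization, with trend and robust options in eBayes and without the 40% dimmest probe sets. It was 2 with array weights, with age as covariate and with the brightest probe set per gene. The last setting held 8 members, and the filter on dim probe sets left fewer than 17. The share of all probe sets that passed was not computed for these fits, so the counts are not read as results on the members. Markers of glia differed between the genotypes in the same arrays, and not all in 1 direction. The 11 astrocyte markers averaged between 9.77 and 9.99 in mutants and between 9.33 and 9.75 in normals, with 10 of the 11 higher in mean. The 11 reactive astrocyte markers averaged between 6.13 and 6.52 in mutants and between 5.27 and 6.18 in normals. Of these, 9 were higher in mean and Gfap was called higher (change 2.27, limma adjusted p = 0.015), while S1pr3 and Steap4 had changes of -0.19 and -0.16. The 14 microglia and macrophage markers averaged between 8.11 and 8.46 in mutants and between 7.11 and 7.71 in normals, with 9 of the 14 higher in mean. Cd68 and Mpeg1 of this list were called higher at an adjusted p of 0.05 in limma (changes of 2.08 and 2.07), while P2ry12 and Tmem119, markers of resting microglia, had changes of -0.61 and -0.25. The 9 oligodendrocyte markers averaged between 8.86 and 9.64 in mutants and between 9.96 and 10.6 in normals, with 0 of the 9 higher in mean, 7 lower at an unadjusted p under 0.05, 0 called at the adjusted threshold and a median change of -0.82. The part of glial, striatal and RNA quality differences in the values of Gpc1, Gpc3, Sdc2, Sdc3 and Sdc4 was not tested.

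Gpc4 varied more between animals than any other member. Glypican-4 is released by astrocytes and is known to recruit AMPA receptors to young synapses. Its probe set was at 7.40, 5.47, 8.09 and 5.82 in mutants, against 6.18, 6.20, 6.53 and 7.31 in normals. Mutants 3 and 1 and normal 4 were high, mutants 2 and 4 were the lowest, and the range over the 8 arrays was 6.14-fold. The standard deviation within groups, 0.96, was above that of 97.1% of the 18000 probe sets with a mean above background, whose median was 0.29. For Gpc4 it was 1.25 in mutants and 0.53 in normals. The genotype difference was 0.14 ± 0.58 (SE), with a 95% interval from -1.19 to 1.47 (limma adjusted p = 0.987). It turned to -0.10 without mutant 1, to -0.33 without mutant 3 and to -0.91 without both. The array order of Gpc4 ran largely opposite to that of the thalamic and habenular markers. Their mean over 10 genes was 8.14, 9.67, 6.55 and 9.56 in mutants 1 to 4, against 8.24, 9.32, 7.63 and 6.78 in normals 1 to 4. The 4 arrays highest in Gpc4 were the 4 lowest in these markers, and the 2 arrays lowest in Gpc4 were the 2 highest in them. This list was picked out of the marker lists after the values were seen. Hippocampal field markers were highest in mutant 3 (7.19) and lowest in mutant 2 (5.52), as Gpc4 was, but at 5.55 in normal 4. Astrocyte markers averaged 9.99 in mutants 2 and 4, against 9.82 and 9.77 in mutants 1 and 3 and 9.33 to 9.75 in normals. Choroid plexus markers were high in mutants 1 and 3 (means of 7.97 and 6.97 over 12 genes, with all 12 higher in mean in mutants) and at 5.45 in mutants 2 and 4, against 4.56 to 5.52 in normals, of which normal 4 had the lowest mean and a high Gpc4 value. The part of tissue content in the spread of Gpc4 was not tested.

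Gpc3 lies next to Gpc4 on the X chromosome in the gene table, with 0 genes listed between them, yet the order of animals differed. Glypican-3 is known as an inhibitor of growth whose loss causes an overgrowth syndrome in humans. Its probe set was at 6.35, 4.86, 4.70 and 4.68 in mutants, against 4.17, 6.20, 5.15 and 5.75 in normals. Mutant 1 stood above the other mutants, and the normals were spread from the lowest value of all to near that of mutant 1. The change was -0.17 ± 0.51 (SE, limma adjusted p = 0.982), and it was 0.13 without normal 2. Normal 1, the array of lower RNA quality, was the lowest, and without it the change was -0.55. The Pearson r of Gpc3 with Gpc4 over the 8 arrays was 0.283.

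Gpc6, whose product is the other synapse-promoting glypican of astrocytes, was dim. The brighter of its probe sets was at 4.63, 4.23, 4.76 and 4.52 in mutants, against 4.63, 4.76, 4.59 and 5.03 in normals, with a change of -0.22 ± 0.15 (SE, limma adjusted p = 0.905). The groups overlapped, and normal 4 was highest. The dimmer lay between 3.14 and 3.65 in mutants and between 3.37 and 3.67 in normals, not above the background on any array.

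**Figure D3:**
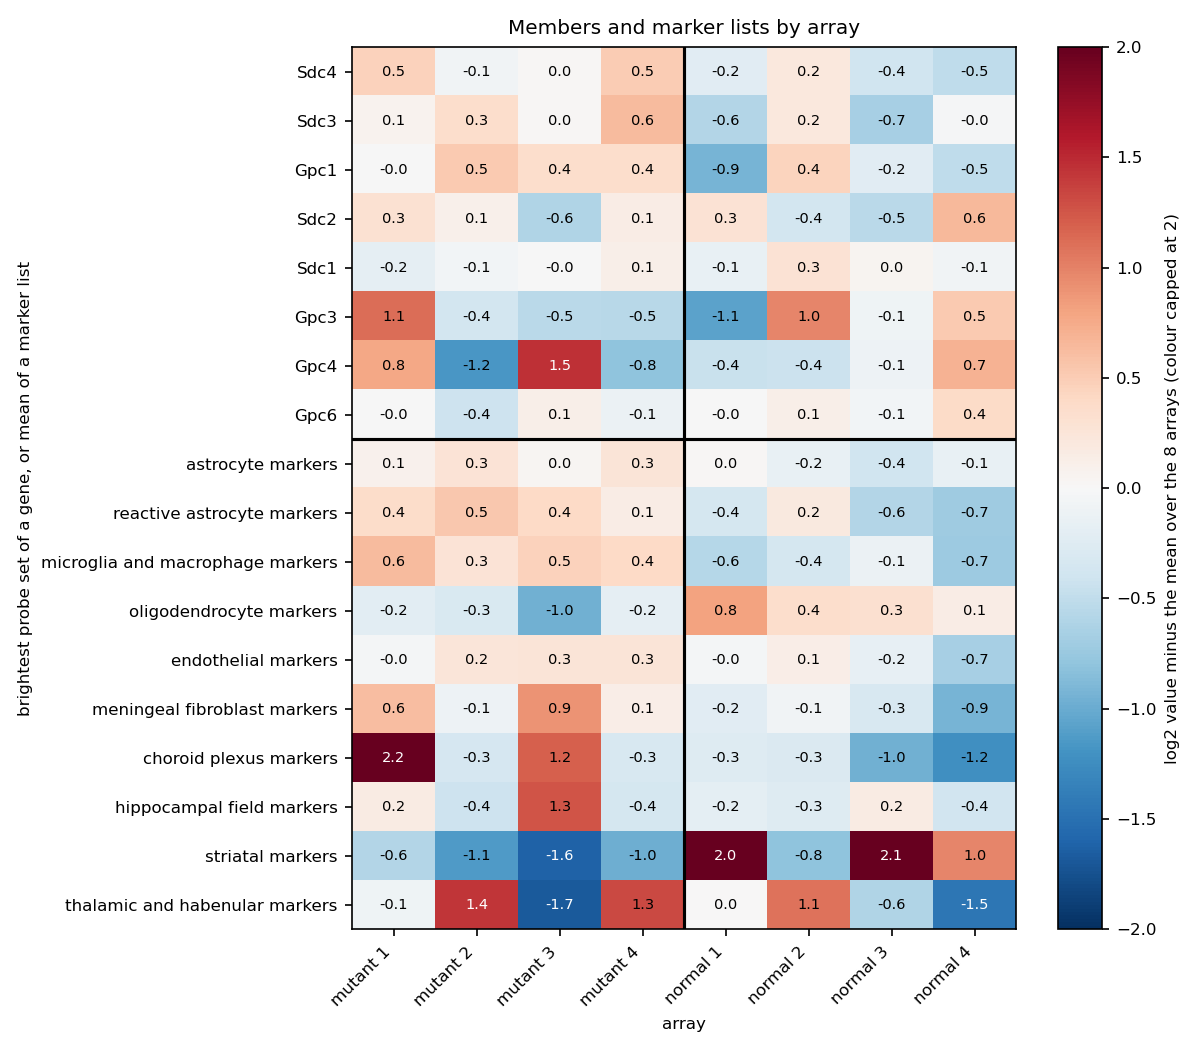
Brightest probe set of each syndecan and glypican gene (upper rows) and means of marker lists (lower rows) by array, with mutants left of normals, as the log2 value minus the mean over the 8 arrays. Gpc4 is high where the thalamic and habenular mean is low, and low in mutants 2 and 4, where that mean is highest.

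Members were also compared between the sexes with genotype as a term, since Gpc3 and Gpc4 are X-linked. In limma, 0 of 17 probe sets passed at an adjusted p of 0.05, with 2 at an unadjusted p under 0.05, against 0.0354% and 2.45% of all probe sets. The X-linked Gpc3 and Gpc4 had differences of -0.01 and -0.11 (male minus female). The smallest unadjusted p was that of the brightest Sdc2 probe set. It was at 9.04, 8.33, 8.57 and 8.40 in males (mutants 2 and 3, normals 2 and 3), against 9.24, 9.08, 9.22 and 9.58 in females (mutants 1 and 4, normals 1 and 4), and the sexes did not overlap, as for 1.75% of all probe sets. The difference was -0.69 ± 0.19 (SE, limma unadjusted p = 0.0085, adjusted p = 1.00), and the other 2 Sdc2 probe sets differed by -0.34 and -0.03. Gpc1 was the other member at an unadjusted p under 0.05, with a mean of 8.43 ± 0.34 in males and 7.88 ± 0.56 in females (SD, n = 4 each), a difference of 0.54 ± 0.21 (SE, limma adjusted p = 1.00). The sexes overlapped for Gpc1, with a lowest male of 7.93 and a highest female of 8.51. The lowest female, at 7.23, was normal 1, the array of lower RNA quality.

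No member passed the test of whether the genotype difference itself differed between the sexes (0 of 17, against 0% of all probe sets). At an unadjusted p under 0.05 there was 1 of 17, the dimmer Sdc4 probe set, against 10.5% of all probe sets. That probe set was at 6.47 and 5.87 in male mutants, against 7.13 and 7.62 in male normals, and at 7.42 and 6.32 in female mutants, against 5.61 and 6.15 in female normals. The difference between males and females in the genotype change was -2.19 ± 0.60 (SE, limma unadjusted p = 0.010, adjusted p = 0.397), with 2 animals in each cell and normal 1 among the females.

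Patterns most like each member were taken as the 3 genes with the highest Pearson r over the 8 arrays out of 10347 genes above background. With so many genes and 8 arrays a high r is easily reached, and the arrays share dissections and RNA quality, so these values are a description. For Gpc4 they were Npr3, a natriuretic peptide receptor (r = 0.967), Nptx1, a neuronal pentraxin (r = 0.957), and Slc4a8, a bicarbonate transporter (r = 0.956). Nptx1 was at 9.43, 8.23, 10.7 and 8.41 in mutants, against 8.70, 8.73, 9.40 and 9.64 in normals, high in mutant 3 and low in mutants 2 and 4 as Gpc4 was. For Sdc3 the nearest were Fasn, the fatty acid synthase gene (r = 0.975), Timp2, a metalloprotease inhibitor gene (r = 0.972), and Tmppe (r = 0.962). For Sdc4 they were Tap2, a peptide transporter gene of antigen presentation (r = 0.980), Myh14, a non-muscle myosin gene (r = 0.966), and Pmfbp1 (r = 0.961). For Gpc1 they were Pla2g6, a phospholipase gene (r = 0.962), Brap (r = 0.959) and Hip1r (r = 0.954). Between the members themselves, the highest r of 28 pairs of brightest probe sets was 0.754, for Sdc3 with Gpc1, followed by 0.672 for Sdc3 with Sdc4 and for Gpc4 with Gpc6.

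The genes around these proteoglycans were read from 8 lists, with the brightest probe set of each gene. No gene of the 8 lists passed at an adjusted p of 0.05 in either direction, against 0.105% of all genes. At an unadjusted p under 0.05, 6.51% of all genes passed, and the groups did not overlap for 3.88%. Of the genes that assemble the chain, 10 of 11 were on the array, 6 had higher means in mutants and 0 passed at the unadjusted threshold (median change 0.09). Extl3, which encodes a transferase that starts the heparan sulfate chain, was at 8.87, 9.18, 9.00 and 9.39 in mutants, against 8.08, 9.13, 9.01 and 8.35 in normals, and the groups overlapped (change 0.46). Fam20b, a kinase gene of the linkage region, had a change of 0.17, and Extl2, a transferase gene, of -0.35. Of the genes that sulfate and edit the chain, 15 of 21 were on the array and 5 had higher means (median -0.05). Papss2, which makes the sulfate donor, was the 1 gene of these 15 at an unadjusted p under 0.05 (change -0.81 ± 0.31 SE, limma adjusted p = 0.809), while the sulfotransferase genes Hs6st1 and Hs2st1 had changes of 0.45 and -0.36.

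Of the lysosomal and other genes of heparan sulfate breakdown, 7 of 10 were on the array and 5 had higher means (median 0.13). The 5 included Gusb, the mutated gene, by its brightest probe set, which overlapped between the groups (change 0.16). Its other probe set was lower in every mutant, at 4.36 to 4.71 against 5.40 to 6.56 in normals, and was not in this count. Naglu, which encodes a glucosaminidase of the pathway, had means of 6.22 ± 0.24 in mutants and 5.44 ± 0.36 in normals (SD, n = 4 each) without overlap, a difference of 0.77 (limma adjusted p = 0.504). Sgsh, the sulfamidase gene, had a change of 0.27 and overlapped, and Arsg, a sulfatase gene, had a change of -0.26. Of 15 genes that shed or release the proteins from the surface, with their inhibitors, all were on the array, 11 had higher means (median 0.24) and 3 were at an unadjusted p under 0.05. These 3 were inhibitors of metalloproteases and not the proteases. Timp3 had a change of 0.78 ± 0.28 (SE) and Timp2 of 0.62 ± 0.24 (SE, limma adjusted p = 0.800 and 0.809), and Timp1 was within the background on average in both groups (means of 3.35 and 3.07). The sheddase gene Adam10 was at 8.92 ± 0.04 in mutants and 9.01 ± 0.31 in normals (SD, n = 4 each), and is named after its values were seen.

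The list of intracellular partners of syndecans, all 15 on the array, had 7 higher means and a median of -0.05, with 1 higher and 1 lower at an unadjusted p under 0.05. The kinase gene Src had a change of 0.87 ± 0.29 (SE, limma adjusted p = 0.739), and the actin-binding gene Actn1 of -0.76 ± 0.44 (SE). Sdccag8, the 1 lower gene, had a change of -0.35 ± 0.14 (SE, limma adjusted p = 0.819). It was in the list but is not an established syndecan partner, so it is not read as one. Of 28 growth factors and receptors that bind heparan sulfate, all were on the array, 17 had higher means (median 0.11), and 1 was higher and 2 lower at an unadjusted p under 0.05. Wnt5a, a secreted ligand gene, was higher in every mutant than in every normal, with a change of 0.75 ± 0.23 (SE, limma adjusted p = 0.648), and Fgfr2, a fibroblast growth factor receptor gene, was lower in every mutant, with a change of -0.40 ± 0.17 (SE), also not past the threshold. Wnt7a, another secreted ligand gene, had a change of -0.37 ± 0.15 (SE) and overlapped. Of the synaptic partners, 7 of 14 were on the array and 5 had higher means (median 0.09), with Ptprs, a receptor phosphatase gene whose product binds heparan sulfate, at a change of 0.17, the related phosphatase gene Ptprf at 0.18 and the scaffold gene Cask at -0.18. The other heparan sulfate proteoglycans, all 11 on the array, had 8 higher means and a median of 0.29. Cd44, which encodes a part-time proteoglycan of reactive glia and immune cells, was higher in every mutant, with a change of 0.94 ± 0.30 (SE, limma adjusted p = 0.688), Nrp1 had a change of 0.67, and Srgn, the proteoglycan gene of blood cell granules, of 0.55. Beside these, the 14 microglia and macrophage markers had a median change of 1.11, and the part of cell content was not tested.

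**Figure D4:**
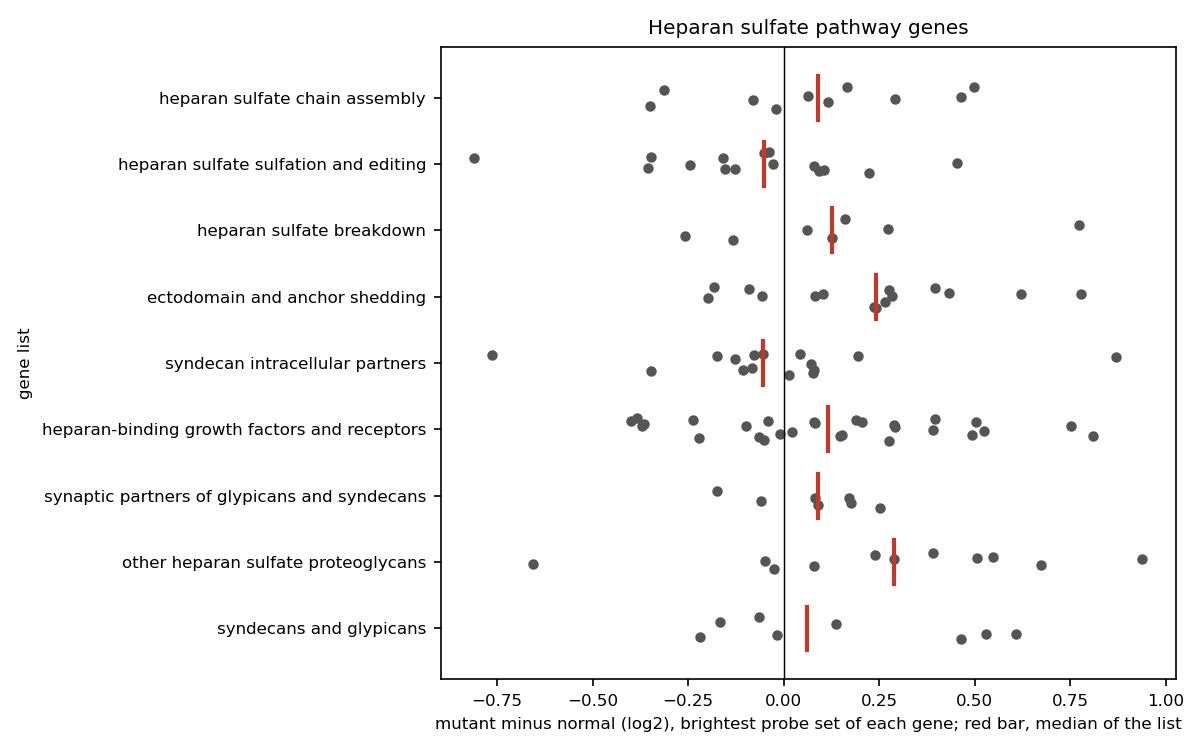
Mutant minus normal difference (log2, horizontal axis) of each measured gene in 8 heparan sulfate gene lists and of the 8 syndecan and glypican genes, by the brightest probe set. Red bars are the list medians, from -0.05 to 0.29, and no point is a gene that passed at an adjusted p of 0.05.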

How the data were processed

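Hippocampal RNA of 4 mutant and 4 normal mice was measured on 1 array per animal. The deposited values are log2 expression per probe set, and per the submitters' processing notes the authors used GCOS 1.4 and RMA; the genome build is not given in the sources used here. Scanner files were not used here, so background correction was not repeated. Of 22690 probe sets, 64 controls were left out, and of the rest 20380 had 1 gene symbol, 691 several and 1555 none in GEO's platform annotation. Array medians were 6.09 to 6.17.

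The contrasts (mutant minus normal, male minus female beside genotype, and genotype by sex) were fitted over all 22626 probe sets with limma 3.58.1 (lmFit, eBayes) in R 4.3.3, with Benjamini-Hochberg adjustment and a threshold of 0.05. The steps were tested on simulated data. List genes and likeness used the probe set with the highest mean per gene, and likeness was set to the 3 genes of highest Pearson r. Named pathway genes are the 3 with the smallest p of each list, or others as said. The members and lists were chosen with earlier results of these data known. Alternatives were the brightest probe set per gene, a filter on dim probe sets, quantile normalization, centring on array medians, array weights, eBayes with trend and robust options, sex or age as covariate, same age as a random block, each animal left out, and mutants 1 and 3 left out. Figures used matplotlib 3.10.9 in Python 3.11.15. Precision is limited by the number of animals and by the spread within groups.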

Additional observations from a re-analysis of the deposited data

Results flagged for a closer look

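In 64 groups of 4 arrays (17 probe sets, 14 marker lists and the RNA quality measure, in mutants and in normals), 6 held an array far from the other 3, and chance flags about 1 in 20 such groups. Among the members these were the dimmest Sdc3 probe set, at 4.14 in mutant 3 against 5.38 to 5.59 in the other mutants, the second Sdc3 probe set in brightness, at 6.15 in normal 3 against 5.86 to 5.89 in the other normals, and Gpc3, at 6.35 in mutant 1 against 4.68 to 4.86 in the other mutants. Mutant 3 also had a mean of oligodendrocyte markers of 8.86, against 9.51 to 9.64 in the other mutants. Mutant 1 had a mean of endothelial markers of 6.33, against values of 6.60, 6.61 and 6.62 in mutants 2 to 4. The difference of 3 prime and 5 prime control probe sets was 3.58 in normal 1, against values between 0.22 and 0.35 in normals 2 to 4. The part of these in the values of Sdc3 and Gpc3 was not tested.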

How the results depend on the processing

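No syndecan or glypican probe set passed at an adjusted p of 0.05 under any of the 18 alternatives for genotype, with a smallest adjusted p of 0.222, nor in those run for sex and for the interaction. Of 289 recomputed differences, 263 kept their direction and 26, from 9 probe sets, turned, none of them past the threshold; the cause was not tested. Gpc1, the brightest Sdc3 probe set and the brighter Sdc4 probe set stayed higher in mutants throughout, at 0.40 to 0.86, 0.40 to 0.75 and 0.37 to 0.61. With array weights the differences that turned were the dimmest Sdc1 0.048, the brightest Sdc2 0.33, the second Sdc3 -0.019, Gpc4 -0.25. Leaving out each animal in turn, the probe sets that turned ran from lowest to highest as follows, with the brightest Sdc1 -0.12 to 0.022, the third Sdc1 -0.011 to 0.22, the dimmest Sdc1 -0.19 to 0.086, the brightest Sdc2 -0.20 to 0.19, the dimmest Sdc3 -0.65 to 0.10, the dimmer Sdc4 -0.44 to 0.23, Gpc3 -0.57 to 0.13, Gpc4 -0.33 to 0.55. Without mutants 1 and 3 they were the brightest Sdc1 0.00065, the dimmest Sdc1 0.14, the brightest Sdc2 0.12, the second Sdc3 -0.018, the dimmest Sdc3 0.044, Gpc4 -0.91. Over all probe sets, 18 were called higher and 2 lower. Array weights gave 50 and 10, sex as covariate 7 and 0, age as covariate 10 and 0, and leaving out mutants 1 and 3, which leaves fewer samples, 3 and 0. The brightest probe set per gene, which tests fewer features, gave 1 lower. Leaving out each animal gave 6 to 15 higher and 0 to 12 lower. No paired analysis was possible because no replicate number in the labels ties a mutant to a normal. Shared age was fitted instead, as a random block, which gave 15 higher and 2 lower, with 0 members called. The correlation fitted between animals of the same age was negative, at -0.22, so this block does not stand in for a paired fit. With 4 animals per group, wide spread within groups limits what can be said of Gpc3, Gpc4, the dimmest Sdc3 and the dimmer Sdc4 probe set.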
